A study of Rattus norvegicus with 22 samples.

Results

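Contused rat spinal cord without drug or radiation was compared with cord from rats that had a laminectomy, which is the removal of the bone over the cord and the operation that any contusion needs. The members are the 2 arrays labelled contusion and the 3 arrays labelled laminectomy, taken by their titles, 5 of the 22 arrays of the series. Per the labels the contused cords were struck at thoracic level 10 by a 10 g rod with a 2.5 mm tip dropped from 25 mm, and tissue was taken 24 h later. All cords were perfused with phosphate-buffered saline, which washes blood out of the vessels. The time between laminectomy and tissue collection, and the strain, sex and age of the rats, are not stated in the labels. The labels also do not say if arrays came from different animals, so the p-values measure only the spread between these samples. The other arrays used below are 3 from normal cord and 14 from contused rats that were also treated, 2 with clenbuterol at 150 mg/kg, 3 with X-rays at 10 Gy, 3 with tempol at 275 mg/kg, 3 with BSO at 150 mg/kg and 3 with tempol and BSO together. Clenbuterol, X-rays and tempol came 20 min after the injury, and BSO 24 h before it.

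A blow to the cord tears vessels and axons at once and is followed within hours by a second wave of damage. Injured cells and resident microglia release chemokines, small secreted proteins that draw neutrophils and then blood monocytes into the lesion, where the monocytes become macrophages that clear debris, heme and lipid. Neurons and oligodendrocytes, the cells that wrap axons in myelin, die or shut down transcripts around the lesion, and astrocytes enlarge and in time build a scar. Opening the spine can by itself start part of this response, so laminectomy is the usual control for the blow.

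The arrays give 1 linear fluorescence signal per probe set, a group of short probes for a transcript, and the differences below are in log2 signal, so that a difference of 1 is a doubling. Values after ± are standard errors from a limma fit over all arrays of the series, with 2 contusion against 3 laminectomy arrays. Nearly all of the comparison lies within the spread between arrays. Of 31042 probe sets tested, 1 passed an adjusted p of 0.05, which is 0.00322%. At an unadjusted p under 0.05 there were 1669 (5.38%), 774 higher and 895 lower, where 1552.1 would be met at that threshold with no difference at all. The smallest adjusted p of a probe set with a gene name was 0.376. The values that follow for named genes are therefore measurements that missed the adjusted threshold, and groups that do not overlap are described as such.

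Of 14217 genes, each read from its brightest probe set, 354 were higher after contusion at an unadjusted p under 0.05 (2.49%) and 394 were lower (2.77%). Both contusion arrays lay above all 3 laminectomy arrays for 1413 genes (9.94%) and below all 3 for 1497 (10.5%). The difference exceeded 1 in size for 2861 genes, and its median over all genes was 0.02. Whatever the p, 51.3% of all genes stood higher and 48.7% lower. The correlation of log2 signals between pairs of these 5 arrays ran from 0.640 to 0.824, and the highest was between a contusion and a laminectomy array. The array laminectomy 2 stood apart, with a median correlation of 0.667 to the other 21 arrays of the series against 0.769 to 0.785 for the other 4. Its ratio of 3′ to 5′ signal, a measure that rises with broken RNA or short labelling products, was also high. For beta-actin it was 1.38 in log2 against -0.06 to 0.55 on those 4. Probe sets for added control transcripts varied too, with mean log2 signals of 10.64 and 11.99 on the contusion arrays. On laminectomy 1, 2 and 3 they averaged 10.71, 13.57 and 12.38. The part of this in the differences was not tested. On the gene names themselves the tissue looked like cord, since the median myelin gene stood at percentile 93.3 of all probe sets, the median astrocyte gene at 97.3 and the median neuron gene at 88.4. The Hox genes that pattern the thoracic cord had a median percentile of 49.1.

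The 1 probe set that passed carries no gene name in the annotation used here. Probe set 1374271_at gave signals of 21.3 and 15.3 on the contusion arrays. On the laminectomy arrays it gave 383.6, 257.3 and 222.9, and on normal cord 318.6, 276.1 and 298.0. It fell by 3.96 ± 0.51 in log2 (a fold of 15.5, limma adjusted p = 0.00931). Treated contused cords ran from 63.9 to 415.5 with a median of 175.1, so every one of them lay above both untreated contusions. Its treated minus normal difference was -0.72 (adjusted p = 0.6). The call was lost with only the 5 arrays in the fit, with 32 added to the signal, without either contusion array, and without laminectomy 2 together with a normal array that also stood apart, with adjusted p from 0.0785 to 0.985, while the difference stayed between -4.19 and -2.64.

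The genes with the smallest p on the higher side included products of myeloid cells, chemokines and genes of blood and heme. Arg1, the arginase that macrophages use to turn arginine into ornithine, had signals of 894.6 and 778.4 after contusion. Its laminectomy signals were 141.8, 103.5 and 183.0, close to the normal signals of 82.8, 189.8 and 137.9. The contusion arrays stood 2.59 ± 0.52 higher, a fold of 6.00 (limma adjusted p = 0.419). All 14 treated contused arrays, at 197.8 to 759.3 with a median of 453.9, also lay above every normal array.

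Ccl2, the main attractant of blood monocytes, gave 2239.6 and 2307.0 after contusion. The laminectomy arrays gave 338.9, 502.7 and 128.4, and normal cord 40.0, 52.9 and 23.2. The difference from laminectomy was 3.02 ± 0.70, a fold of 8.13 (limma adjusted p = 0.725). Laminectomy thus stood above every normal array and below both contusions, and none of these groups overlapped.

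Ccl7 and Ccl6 encode further chemokines of the same CC family that act on monocytes. Ccl7 read 442.1 and 363.8 after contusion against 159.9, 128.3 and 66.6 after laminectomy, a difference of 1.85 ± 0.54. Ccl6 read 803.6 and 1294.7 against 137.8, 265.1 and 488.9, a difference of 1.96 ± 0.62. Their normal signals, at most 69.9 for Ccl7 and 63.8 for Ccl6, lay below all laminectomy signals of Ccl6 and all but the lowest of Ccl7.

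Ccr1, a receptor for several of these CC chemokines, was near the bottom of the scale in laminectomy and normal cord. Treated contused arrays ran from 5.6 to 307.4 with a median of 156.3, and 1 of them lay below every normal array. Ccr1 read 6.4, 8.1 and 10.6 after laminectomy and 105.8 and 134.6 after contusion, a difference of 3.86 ± 0.92 (a fold of 14.6). At signals this low the fold depends on the background of the array: with 32 added to each signal the difference was 1.91. Of the 8 chemokine receptors measured, Ccr1 was the 1 gene at p under 0.05, 12.5% against 2.49% of all genes, and Ccr2, the receptor of Ccl2, stood 0.66 higher with overlapping arrays.

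**Figure D1:**
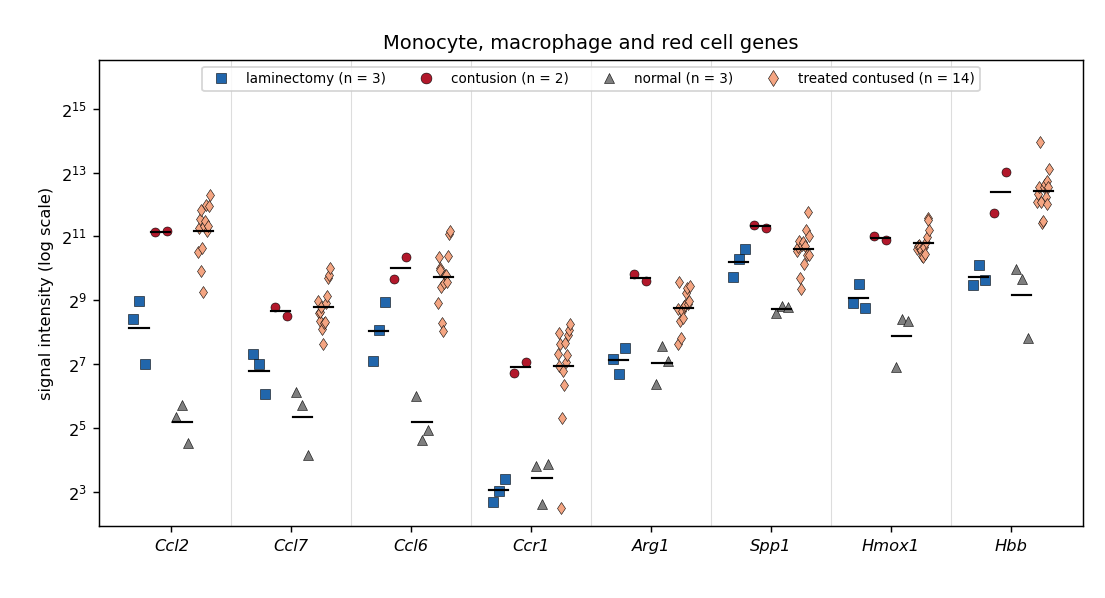
Signal intensity on a log scale for 8 genes of monocyte recruitment, macrophages and red cells, 1 point per array and a bar at the mean of log2 signal. Both contusion arrays lie above all 3 laminectomy arrays for each gene, and for Ccl2 the laminectomy arrays (128.4 to 502.7) lie between normal cord (23.2 to 52.9) and contusion (2239.6 and 2307.0).

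Over the list of 19 measured CC and CXC chemokines, 12 stood higher and 7 lower, with a median of 0.36. It was 0.18 without laminectomy 2, and 0.55, 0.59 and 0.66 without laminectomy 1, laminectomy 3 and contusion 1. At p under 0.05 there were 5 higher (Ccl2, Ccl7, Ccl6, Ccl3 and Cxcl1), which is 26.3% against 2.49% of all genes, and 0 lower. Cxcl1, which attracts neutrophils, read 133.7 and 320.1 after contusion against 122.2, 19.7 and 22.4. Ccl3 read 303.4 and 422.8 against 55.3, 221.4 and 67.8. Cx3cl1, the neuronal chemokine that signals to microglia, and Cxcl14 had non-overlapping arrays in the other direction, at -1.28 and -0.78.

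The 14 measured macrophage genes had a median of 0.90, with 11 higher and 3 lower. At p under 0.05 there were 7 higher, 50% against 2.49% of all genes, and 0 lower, and for 9 both contusion arrays lay above all laminectomy arrays, 64.3% of the list against 9.94% of all genes. Spp1, the secreted matrix protein osteopontin, read 2615.9 and 2465.0 after contusion and 846.9, 1243.4 and 1545.0 after laminectomy, a difference of 1.11 ± 0.46. Normal cord read 384.1 to 447.1. Gpnmb, a membrane glycoprotein of lipid-laden phagocytes, read 3715.4 and 2240.4 against 1344.3, 2062.3 and 793.9, and normal cord 122.0 to 353.5. For both genes the laminectomy signals lay between the other groups.

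Cd68 and Cd163, a lysosomal protein of phagocytes and the receptor that takes up haptoglobin-bound hemoglobin, stood 1.92 ± 0.88 and 2.33 ± 1.01 above laminectomy. In treated minus normal, a comparison of other arrays, the differences were -0.47 and 0.11, and neither passed the test. Fcgr2b, an inhibitory receptor for antibodies, differed by 2.21, and by 0.89 without laminectomy 1, whose signal of 18.0 was far below the other 2 at 269.5 and 300.0. The macrophage scavenger Mrc1 stood at -0.64 and Adgre1, the gene of the F4/80 antigen, at -0.29, both with overlapping arrays.

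Microglia markers stood on both sides of laminectomy. Of 12 measured, 7 stood higher and 5 lower with a median of 0.10, which was -0.23 without laminectomy 2. Both contusion arrays lay above all laminectomy arrays for 0 of them, against 9.94% of all genes. They lay below all laminectomy arrays for 3, 25% against 10.5%. At p under 0.05, 1 was lower, 8.33% against 2.77% of all genes, and 0 were higher. Csf1r, the receptor that microglia and macrophages need to survive, read 298.6 and 1050.0 after contusion against 1770.8, 1113.2 and 1408.8. Its difference was -1.33 ± 0.63, and -0.42 without contusion 1 or -2.23 without contusion 2. P2ry12, a purine receptor of resting microglia, and C1qb, a complement subunit, stood at -0.52 and -0.53 with no overlap.

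Among 10 neutrophil genes S100a9, which encodes a subunit of the calcium-binding protein calprotectin, was the 1 at p under 0.05, 10% of them against 2.49% of all genes. It read 634.3 and 1267.3 after contusion and 128.1, 440.2 and 373.9 after laminectomy, a difference of 1.70 ± 0.76. Its partner S100a8 stood 0.88 higher, also without overlap. Slpi encodes an inhibitor of neutrophil proteases and was chosen after its values were seen. It read 3976.7 and 5027.7 against 959.2, 1403.3 and 1505.6, and normal cord 198.1 to 399.2.

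Genes that act in the NF-kB response to damage stood higher in 15 of 17 cases, with a median of 0.73. Without laminectomy 2 the median was 0.33. At p under 0.05 there were 3 (Tnfaip6, Ptgs2 and Cd14), 17.6% against 2.49% of all genes, and 7 had no overlap, 41.2% against 9.94%. Tnfaip6, a secreted protein that binds hyaluronan, read 485.1 and 512.1 after contusion against 195.2, 263.1 and 180.3, and normal cord 41.7 to 119.8. Ptgs2, the inducible cyclooxygenase, read 188.1 and 210.0 against 81.6, 33.1 and 153.0, and its difference of 1.42 was 0.83 without laminectomy 2. Cd14, a co-receptor for bacterial lipid and for signals of dying cells, differed by 1.03 ± 0.47.

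Hbb, the beta chain of hemoglobin, read 3393.4 and 8326.7 after contusion and 706.0, 1099.7 and 801.2 after laminectomy. The difference was 2.64 ± 0.65, a fold of 6.23, and all 14 treated contused arrays (2746.5 to 15965.9) lay above every normal array (227.2 to 1013.9). Of the 7 red cell genes measured 6 stood higher, with a median of 1.12. Slc4a1, the anion exchanger of the red cell membrane, read 582.1 and 340.0 against 108.2, 43.3 and 160.0, but normal cord spanned 39.3 to 665.7 and a second probe set stood at -1.09 ± 1.12. How far blood left in the tissue takes part in the differences of the macrophage and neutrophil genes was not tested.

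Hmox1, heme oxygenase 1, degrades heme and is also induced by oxidative stress. It read 2058.0 and 1877.4 after contusion, 486.5, 724.4 and 435.3 after laminectomy, and 120.1, 338.5 and 326.7 in normal cord. The difference from laminectomy was 1.88 ± 0.45, a fold of 3.67 (limma adjusted p = 0.735). Over all 13 genes of the heme and iron list the median was 0.06, and the list's level on the 2 contusion arrays lay on opposite sides of laminectomy, at 0.57 and -0.46.

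The lists of neurons, oligodendrocytes and astrocytes stood lower after contusion. In whole tissue, fewer cells of a type and less RNA per cell cannot be told apart. Nefl, the light neurofilament chain of axons, read 1082.3 and 1046.6 after contusion. It read 4316.7, 6455.4 and 3198.5 after laminectomy and 7742.8, 4931.6 and 4420.8 in normal cord, with no overlap. The difference was -2.07 ± 0.56, a fold of 4.20 (limma adjusted p = 0.822), and a second probe set of Nefl gave -1.33 ± 0.52.

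Of the 24 neuron genes 21 stood lower, with a median of -0.68, which was -0.43 without contusion 1 and -1.05 without contusion 2. At p under 0.05 there were 7 lower, 29.2% against 2.77% of all genes, and 0 higher. The heavy and medium neurofilament genes Nefh and Nefm stood at -2.09 and -1.22, and Tubb3, the neuronal tubulin, at -0.86. Nefh moved to -1.21 without contusion 1. Gad1, which makes the inhibitory transmitter GABA, stood at -1.30 (-0.81 without contusion 1), while its sister enzyme Gad2 stood at 0.80 with both contusion arrays above all laminectomy arrays.

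Genes of synaptic vesicle release had the lowest median of the lists described here, -0.94 over 18 genes, with 15 lower. At p under 0.05 there were 6 lower, 33.3% against 2.77% of all genes, and 0 higher. For 9 both contusion arrays lay below all laminectomy arrays, 50% against 10.5%. Cplx1, complexin 1, which clamps and triggers vesicle fusion, read 822.4 and 1071.1 after contusion against 2777.4, 3751.9 and 2376.8, and normal cord 3679.8 to 9303.6. Snap25, part of the fusion machine itself, read 870.2 and 3128.6 against 4566.5, 8121.6 and 4266.0. Its difference of -1.71 was -0.79 without contusion 1 and -2.64 without contusion 2. The list stood at -1.74 on contusion 1 and -0.69 on contusion 2, and at -0.27, 0.55 and -0.10 on the laminectomy arrays, where laminectomy 2, the array with the high 3′ to 5′ ratios, was the highest. Without laminectomy 2 the list's median was -0.82, that of the neuron genes -0.48, that of the astrocyte genes -0.58 and that of the myelin genes -0.60, and the part of RNA quality in these differences was not tested.

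Vamp1, a vesicle protein of the same machine, shows how far a value can rest on the probe set. Its brightest probe set stood at -1.44 (-0.92 without contusion 1), another at -0.07 and the third at 1.80 ± 0.69. Of 20 transmitter receptor genes 14 stood lower, and 4 were lower at p under 0.05 (Grin1, Grm3, Glrb and Gabrb1), 20% against 2.77% of all genes. Grin1, the obligate subunit of NMDA receptors, read 49.1 and 28.1 after contusion against 396.0, 172.2 and 295.0. Normal cord, at 104.6, 103.6 and 23.6, lay below all laminectomy arrays. A second probe set of Grin1 stood the other way, at 1.28 ± 0.61.

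All 16 myelin and oligodendrocyte genes stood lower, with a median of -0.76, and 7 had no overlap, 43.8% against 10.5% of all genes. At p under 0.05 there were 3 (Omg, Ugt8 and Mal), 18.8% against 2.77%. Omg encodes the oligodendrocyte myelin glycoprotein, an inhibitor of axon growth. It read 278.4 and 757.1 after contusion, 3396.1, 2188.9 and 2681.6 after laminectomy and 2815.5, 3170.7 and 3863.9 in normal cord, a difference of -2.56 ± 0.65 (a fold of 5.91). Ugt8, the enzyme that makes galactocerebroside, the main glycolipid of myelin, read 657.9 and 490.3 against 1110.0, 1442.2 and 1269.5, with a second probe set at 1.08 ± 1.02.

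Mbp, myelin basic protein and one of the most abundant messages of the cord, read 22147.7 and 40004.4 after contusion against 27249.7, 71469.3 and 49025.8, so the groups overlapped. Its difference was -0.62 ± 0.57, and ran from -1.05 to -0.19 as single arrays were left out. Mobp, another structural myelin gene, stood at -0.02. Among the progenitors' genes Olig1, a lineage transcription factor, read 856.7 and 855.1 against 1616.7, 2859.0 and 1515.1, and Lhfpl3 read 44.6 and 52.7 against 174.5, 241.3 and 192.0. Vcan, a proteoglycan in the same list, stood 1.80 ± 0.78 higher, and 1.01 without laminectomy 1. Of its other 4 probe sets 3 stood at 0.95 to 2.08 and the fourth at -1.26.

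Of 15 astrocyte genes 13 stood lower, with a median of -0.84, and 8 had no overlap, 53.3% against 10.5% of all genes. Aqp4, the water channel of astrocyte endfeet, read 1538.5 and 2584.2 after contusion against 4361.1, 8153.7 and 5551.9, a difference of -1.55, with its other 2 probe sets at -0.53 and 1.25 ± 0.65. Slc4a4, a bicarbonate transporter, read 149.8 and 141.9 against 275.4, 518.9 and 409.4. Gja1, the gap junction protein connexin 43, stood at -1.37, and at -0.91 without laminectomy 2, with its other 2 probe sets at 0.36 and -1.17. Slc1a2, the main glutamate transporter, read 210.4 and 663.3 against 296.9, 21.2 and 363.0, with overlap.

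Gfap, the intermediate filament that defines astrocytes, had a pattern of its own. It read 12101.0 and 12442.3 after contusion and 27486.8, 45856.3 and 27158.6 after laminectomy, a difference of -1.40 ± 0.42 (a fold of 2.65). Normal cord, at 12396.1, 9951.8 and 13415.2, lay with the contusions, and the treated contused arrays ran from 8054.3 to 20095.2. The laminectomy arrays were thus the high group, above all 19 others. Hspb1, a small heat shock protein, was also highest after laminectomy, at 1226.6, 1393.3 and 859.6 against 655.9 and 270.9 after contusion and 68.8 to 204.7 in normal cord, while the treated contused arrays reached 878.0.

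The reactive astrocyte list as a whole stood near laminectomy, with a median of 0.25 over 19 genes, 11 higher and 8 lower, and 0.01 to 0.13 as each of the 5 arrays was left out. Timp1, the inhibitor of matrix metalloproteinases, read 5995.0 and 9570.7 after contusion and 4063.4, 4641.9 and 4954.9 after laminectomy. Normal cord read 215.7, 80.9 and 69.4. The contusion arrays stood 0.74 ± 0.70 above laminectomy, or 0.40 without contusion 2, and both groups lay far above normal cord.

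**Figure D2:**
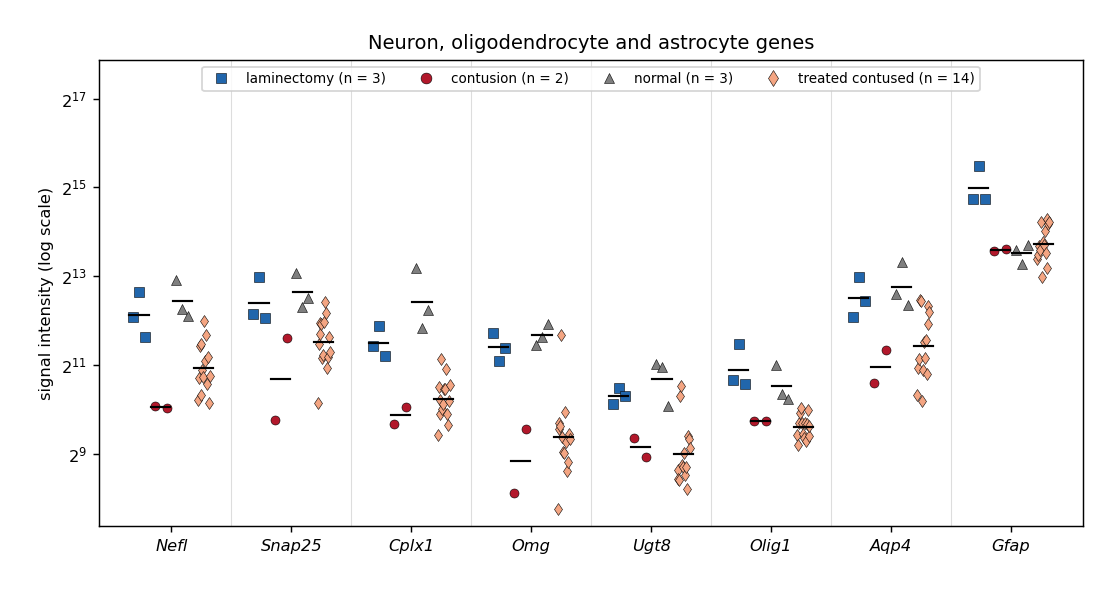
Signal intensity on a log scale for 8 genes of neurons, oligodendrocytes and astrocytes, 1 point per array and a bar at the mean of log2 signal. Contusion lies below laminectomy for each gene, and for Gfap the laminectomy arrays (27158.6 to 45856.3) lie above normal, contused and treated arrays.

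Other lists gave smaller sets. Complement genes stood lower in 8 of 12 cases with a median of -0.53, which was -0.31 without laminectomy 2, and C1s, a protease of the first complement step, read 57.6 and 113.2 after contusion against 275.0, 348.3 and 292.5. Cholesterol synthesis genes stood lower in 14 of 16 cases with a median of -0.53. Fdps and Insig1 were lower at p under 0.05, 12.5% of the list against 2.77% of all genes. Immediate early genes stood higher in 15 of 18 cases with a median of 0.38, which was 0.22 without laminectomy 1. Ier2 was the 1 at p under 0.05, 5.56% against 2.49% of all genes. Cldn5, the claudin that seals brain endothelium, read 247.1 and 68.1 against 855.9, 427.5 and 478.9, a difference of -2.11 that was -1.18 without contusion 2. The endothelial list did not follow it, with 8 of 14 genes higher, 6 lower and a median of 0.37. Cldn5 was its 1 lower gene at p under 0.05, 7.14% against 2.77% of all genes, and 0 were higher. Arrays did not overlap for 4 higher genes (28.6% against 9.94%) and 3 lower ones (21.4% against 10.5%). Matrix metalloproteinases and their inhibitors had 0 of 19 genes at p under 0.05, and ribosomal protein genes 0 of 10. Among all genes 2.49% were higher and 2.77% lower at that threshold, so lists this short can hold none.

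**Figure D3:**
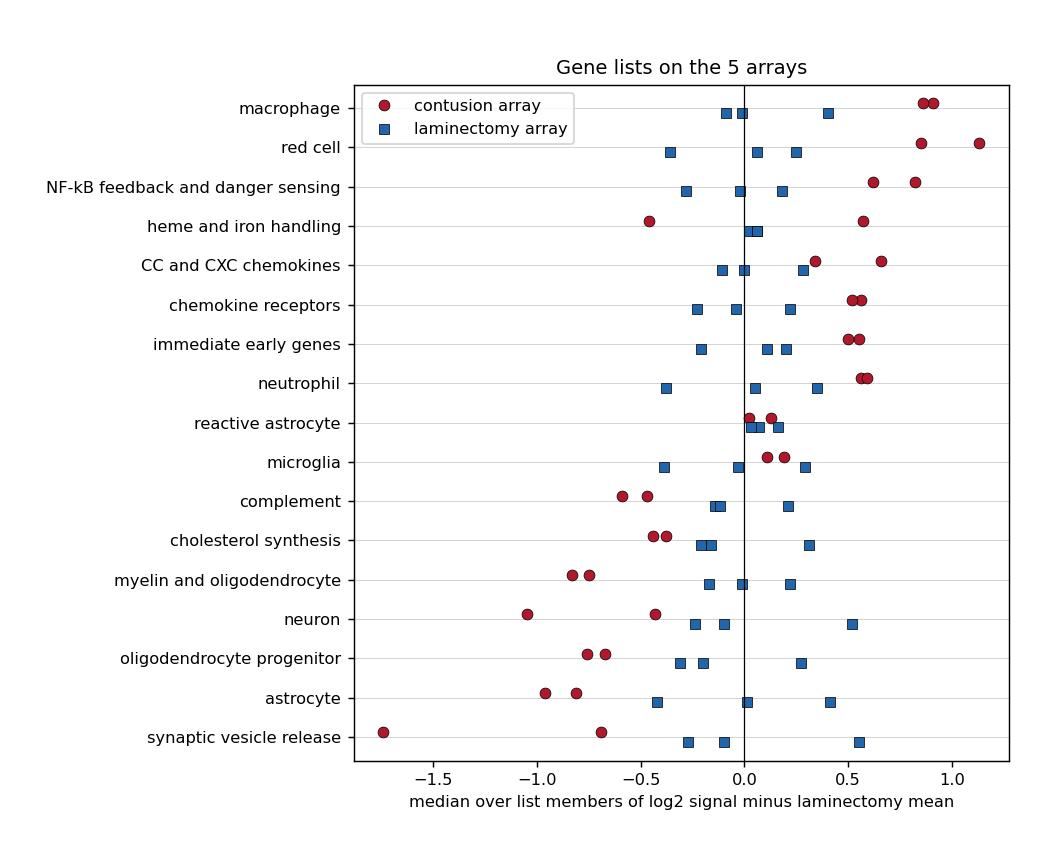
Level of 17 gene lists on each of the 5 arrays, as the median over the list's genes of log2 signal minus the laminectomy mean. Both contusion arrays lie above all laminectomy arrays for the macrophage list (0.91 and 0.86 against -0.09 to 0.40) and below them for the astrocyte list (-0.96 and -0.81 against -0.42 to 0.41).

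Several genes with small p had values that other arrays or probe sets did not share. Of the 15 higher genes with the smallest p, Kcnh4, Zfp277, Cs, Dact3, Cnnm4, Atp5po and Ttc22 lay within 0.55 of normal cord in the treated arrays. Dact3 read 283.3 on contusion 1 and 7631.8 on contusion 2 against 33.0 to 107.0 after laminectomy, and its other 2 probe sets stood at -0.66 and -0.95. Atp5po was named by a dimmer probe set at 1.79, and its brightest probe set stood at -0.07. Cs, citrate synthase, stood 1.56 ± 0.43 above laminectomy on its brightest probe set and between -0.17 and 0.90 on 3 others. On the lower side Plcxd2 had the smallest p of any named gene, 50.1 and 151.8 against 596.9, 544.3 and 575.1, with a second probe set at -0.13. The growth factor Fgf1 read 127.6 and 25.1 against 285.0, 363.4 and 554.0, with its other 2 probe sets at 1.01 and 0.59. The one at 0.59 was brighter on these 5 arrays, with a mean signal of 584.6. Its difference of -2.77 was -1.60 without contusion 2.

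The 14 treated contused arrays and the 3 normal arrays share no array with this comparison, though they share its estimate of spread. They hold treatments as well as the blow, and normal cord in place of laminectomy. Among all genes 57 passed an adjusted p of 0.05 as higher there (0.401%) and 10 as lower (0.0703%). Of the 354 genes higher after contusion at p under 0.05, 220 (62.1%) were higher in the treated arrays, against 48.6% of all genes, and 18 were among the 57. Of the 394 lower genes 304 (77.2%) were lower there, against 51.4% of all genes, and 9 were among the 10.

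The lower side of that count changed with the arrays used. With laminectomy 2 and normal 1, which both stood apart, left out, and so with 2 laminectomy and 2 normal arrays, 291 genes were lower at p under 0.05, of which 190 (65.3%) were lower in the treated arrays, against 52.7% of all genes. The separate comparison then had 2 lower genes past the threshold, and 0 of them were among the 291. On the higher side 19 of 60 were shared without those arrays. Of 287 genes higher at p under 0.05, 171 (59.6%) were higher in both, against 47.3% of all genes higher in the treated arrays.

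The 27 genes in both sets are named here because of that, some of them after their values were seen. In the treated arrays Ccl2 rose by 5.96 ± 0.49 over normal cord (limma adjusted p = 4.07e-06), Ccl6 by 4.55, Slpi by 4.31, S100a9 by 3.54, Ccl7 by 3.46, Ccr1 by 3.39, Hbb by 3.29, Gpnmb by 3.09, Hmox1 by 2.90 and Ccl3 by 2.34. The tubulin Tubb6, Tnfaip6, the annexin Anxa2, which binds plasminogen at cell surfaces, the glutathione transferase Mgst2, Spp1, the neuropeptide galanin (Gal), the ERK phosphatase Dusp6 and Cd14 completed the higher side. Arg1, at 1.71, missed that threshold (adjusted p = 0.0538). On the lower side Slc15a2, a peptide transporter, fell by 2.36, Omg by 2.21, Cplx1 by 2.16, the receptor Gpr37 by 1.71, Slc4a4 by 1.67, Colgalt1 by 1.65, Tril by 1.61, Ugt8 by 1.59 and the sodium-calcium exchanger Slc24a2 by 1.45. Against laminectomy, other probe sets stood at 0.14 for Tubb6, 0.44 for Tnfaip6, 0.26 for Anxa2, and 0.91 and -0.33 for Dusp6. Those of Colgalt1 stood at -0.12, 0.07 and -1.82, that of Slc24a2 at -1.01 and that of Cplx1 at -1.40. Tubb6, at 2.28, was at 1.26 without laminectomy 1, and Colgalt1, at -1.06, was at -0.65 without laminectomy 2.

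For these genes laminectomy lay between normal cord and contusion. Of the 18 higher genes the laminectomy mean exceeded the normal mean in 17, with a median difference of 1.32, and contusion exceeded laminectomy by a median of 1.76. Ccr1 was the exception. Of the 9 lower genes the laminectomy mean lay below the normal mean in 9, by a median difference of -0.67, and contusion lay below laminectomy by a median difference of -1.39. Neither step was free of how the genes were chosen. The step from laminectomy to contusion was itself a criterion. The other criterion, treated minus normal, was stricter, with median differences of 3.00 for the higher genes and -1.67 for the lower. Where treated and untreated contusions read alike, that choice favours a laminectomy mean between normal cord and contusion. The counts of 17 and 9 therefore cannot show a graded response.

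**Figure D4:**
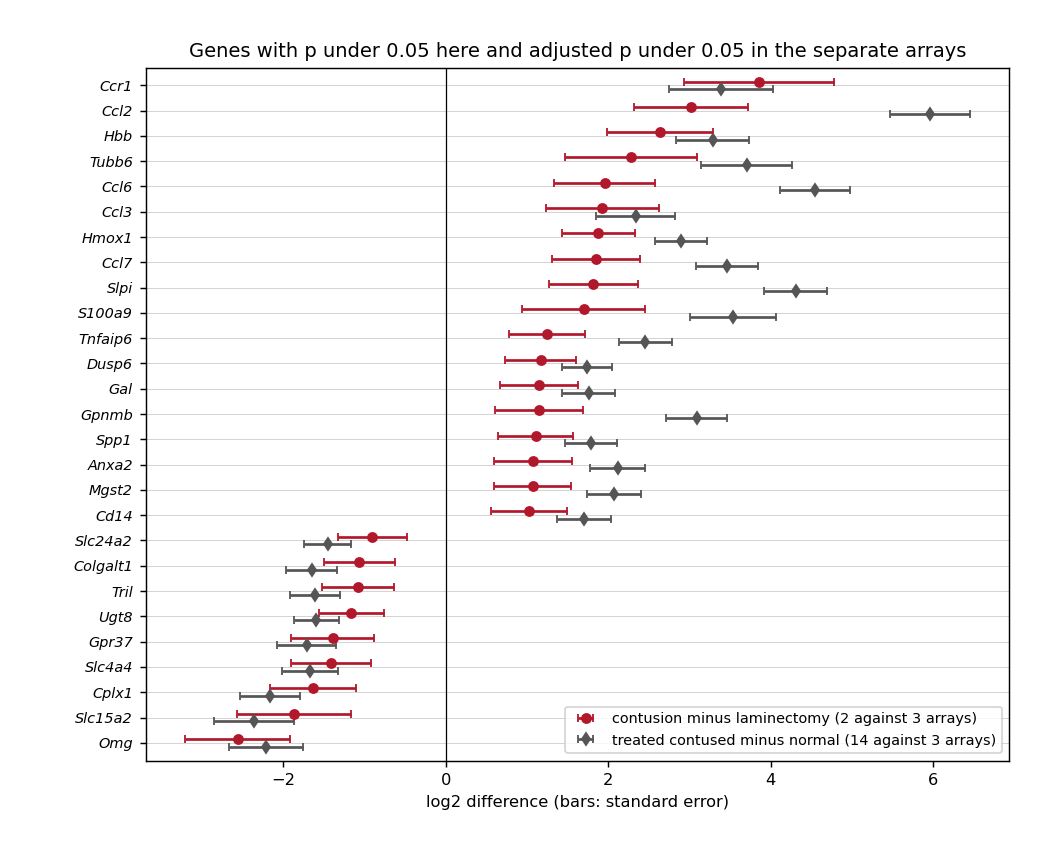
Log2 difference with standard error for the 27 genes at p under 0.05 in contusion minus laminectomy (2 against 3 arrays) that also passed adjusted p 0.05 the same way in treated contused minus normal (14 against 3 arrays). Ccl2 differs most between both comparisons, at 3.02 against 5.96.

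The promoters of a higher and a lower gene of this set are printed to show what lies before their start sites. The sequences are the 250 bases before the start, 5′ to 3′ on the gene's strand, from RefSeq with build GRCr8. Ccl7 lies at chr10:67513845-67514094 on the plus strand and Omg at chr10:64962051-64962300 on the minus strand. Capitals mark the motifs searched on both strands, which were TGANTCA of the AP-1 factors, TATAAA of the TATA box, and the NF-kB motif.
Ccl7: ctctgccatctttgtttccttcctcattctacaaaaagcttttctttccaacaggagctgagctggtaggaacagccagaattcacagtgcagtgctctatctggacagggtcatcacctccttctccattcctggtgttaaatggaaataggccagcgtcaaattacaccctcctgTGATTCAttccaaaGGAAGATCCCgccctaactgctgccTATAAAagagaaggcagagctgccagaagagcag
Omg: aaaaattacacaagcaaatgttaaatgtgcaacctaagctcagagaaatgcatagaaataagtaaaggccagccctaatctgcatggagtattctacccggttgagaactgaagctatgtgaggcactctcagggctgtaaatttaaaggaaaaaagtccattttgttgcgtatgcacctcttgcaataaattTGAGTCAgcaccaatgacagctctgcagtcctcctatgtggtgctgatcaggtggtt
Ccl7 holds all 3 motifs, the AP-1 match at bases -73 to -67, the NF-kB match on the minus strand at -59 to -50 and the TATA box at -34 to -29 from the start. Omg holds an AP-1 match at -57 to -51 alone. Among 27457 rat promoters of this length 6.36% hold the AP-1 motif, 13.1% the TATA box and 6.41% the NF-kB motif. A match is a description of the letters and not a measured site.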

How the data were processed

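Cord RNA was labelled and read on Affymetrix rat arrays, 1 array per sample. The deposited values are signal intensities on a linear scale, and the submitters' processing notes name RMA, although values of RMA are usually logarithmic and these are not. With the top and bottom 2% of values set aside, the array means were all about 250.0. Of 31099 probe sets 57 controls were left out. A single gene symbol is given for 20826 of the 31042 tested, more than 1 for 436, and no symbol for 9780.

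Log2 signals of all 22 arrays entered 1 limma 3.58.1 fit in R 4.3.3 with 8 group means and eBayes (14 residual and 4.713 prior degrees of freedom), since a group of 2 arrays alone gives little estimate of spread. Two-sided p-values were corrected by the Benjamini-Hochberg method across every probe set tested. With 2 against 3 arrays there are 10 splits, and an exact two-sided rank-sum test cannot go below p = 0.2. A gene is read from the probe set with the highest mean, and 700 of 796 genes in 52 lists were measured. The members and lists were chosen with earlier results of these data known.

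Named genes are every probe set past the adjusted threshold, the 15 smallest p in each direction among genes above the median signal whose arrays do not overlap, up to 6 per list at p under 0.05, and Timp1, Gfap, Hmox1, Ccl2, Arg1, Hbb, Mbp and Nefl. For the 15 in each direction a gene entered by its qualifying probe set with the smallest p, which need not be its brightest. That choice favours small p where a gene has several probe sets. Other genes are list members given as examples or were added where said. The contusion and laminectomy arrays numbered alike had deviations from their group means that correlated at 0.176 and 0.095, and the numbers were not taken as pairs. Alternatives were another normalization, an added signal of 32, a minimum mean signal of 50, other fits, array weights, each array left out, and the mean of a gene's probe sets. The number of arrays limits the precision, with a median standard error of 0.757.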

Additional observations from a re-analysis of the deposited data

How the results depend on the processing

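The count of probe sets past adjusted p 0.05 was 1 with all arrays and 0 with 32 added to the signal, with only the 5 arrays in the fit, and without laminectomy 2 and normal 1. It was 3 without laminectomy 1, and 1 without laminectomy 2 or without laminectomy 3. Leaving out a contusion array leaves 1 in that group. The call of 1374271_at was lost then, at differences of -4.19 without contusion 1 and -3.72 without contusion 2. The number at unadjusted p under 0.05 ran from 529 to 1310 on the higher side and from 611 to 1141 on the lower side over the same omissions, with 1310 without laminectomy 1. Probe set 1374271_at was at -2.64 with 32 added (adjusted p = 0.0890), -3.96 with only the 5 arrays (adjusted p = 0.985), and -4.02 without laminectomy 2 and normal 1 (adjusted p = 0.0785), and between -4.19 and -3.72 as single arrays were left out. With the replicate number as a block 1 probe set passed, and 817 were higher and 912 lower at unadjusted p under 0.05. The macrophage, red cell, chemokine, NF-kB, myelin, neuron, synaptic and astrocyte medians kept their sign in 14 of 14 alternatives each. The NF-kB median was 0.47 with array weights, 0.33 without laminectomy 2 and normal 1, and 0.33 to 0.83 as single arrays were left out. The myelin median was -0.60 without laminectomy 2 and normal 1, and -1.02 to -0.60 as single arrays were left out. Single omissions gave 0.18 to 0.66 for the chemokines and -1.74 to -0.69 for synaptic release. Vamp1 reversed to 0.10 as the mean of its probe sets. The count of lower genes shared with the treated arrays went from 9 to 0 without laminectomy 2 and normal 1, an alternative chosen after seeing the data. The cause of these shifts was not tested.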

Other observations

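Growth factor and vessel genes stood on both sides of laminectomy. Adm, the vasodilator adrenomedullin, read 512.7 and 527.1 after contusion against 143.9, 149.7 and 106.2, a difference of 1.98 ± 0.80, but normal cord, at 148.9 to 556.0, reached the contusion level. Fgf2, a growth factor of injured cord, read 253.6 and 307.4 against 58.4, 171.2 and 63.6, with normal cord at 119.0 to 347.3. Pf4, a chemokine that platelets store, read 563.4 and 590.3 against 160.3, 165.2 and 284.4. Of 6 platelet and megakaryocyte genes 4 stood higher and 2 lower. Arrays did not overlap for 2 in each direction, 33.3% against 9.94% of all genes higher and 10.5% lower. The median of that list was 0.94, and 0.39 without laminectomy 2. Cd36, the scavenger receptor for oxidised lipid, read 56.6 and 62.0 against 11.8, 11.3 and 36.8. None of these passed the adjusted threshold in either comparison.

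Position and excitability genes gave further non-overlapping groups. Hoxd8, a homeobox gene of the trunk cord, read 284.2 and 103.2 after contusion against 624.0, 435.2 and 427.5, and its difference of -1.51 was -0.78 without contusion 2. Of 11 Hox genes measured 9 stood lower. Scn1a, a sodium channel of fast-firing neurons, read 84.5 and 177.6 against 386.2, 573.9 and 394.4, while the 16 channel genes as a list split into 8 higher and 8 lower. Mt3, a brain metallothionein that binds zinc, read 247.3 and 1103.3 against 1644.8, 5351.8 and 1962.7, and its difference of -2.31 was -1.23 without contusion 1. Oxidative phosphorylation genes stood lower in 14 of 19 cases with a median of -0.36, which was -0.17 without contusion 1, -0.20 without laminectomy 2 and -0.54 without contusion 2 or laminectomy 1, and Ndufv1, a subunit of the first respiratory complex, read 62.1 and 126.2 against 343.1, 626.9 and 210.9. Ube2c, a ubiquitin carrier of mitotic exit, spread widely within laminectomy, at 2298.2, 201.9 and 593.9, against 99.5 and 58.7 after contusion.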
